A study of Homo sapiens with 2 samples.

Results

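The 20S core and 19S regulatory particle of the proteasome are described here through 33 genes named PSMA, PSMB, PSMC or PSMD with a number, measured by 49 of the 48803 probes of an Illumina bead array. The genes PSMB8 and PSMB9 were set apart as inducible subunits, so the members are largely those of the constitutive particle. PSMB10, which is inducible too, and PSMB11 and PSMA8, which replace a constitutive subunit in particular cells, fall under the same names and were kept. No probe named for PSMA7, PSMC5, PSMD7 or PSMD13 was analysed here. The cells were SW48, an established human colorectal cancer line, and each group was 1 sample on 1 array, a control and a treated one. The treated sample was given 20 µM of AKBA, short for acetyl-11-keto-β-boswellic acid, for 6 days. This compound is a triterpenoid from the resin of Boswellia trees. The treatment protocol describes the controls as given 0.1% dimethyl sulfoxide as vehicle, whereas the source name calls the control sample untreated. With 1 array per group there is no spread between samples, no gene was tested, and higher and lower describe these 2 arrays only.

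The proteasome is the protease that degrades most short-lived and ubiquitin-tagged proteins of the cytosol and nucleus. Its barrel-shaped 20S core has outer rings of alpha subunits (PSMA), which gate the entrance, and inner rings of beta subunits (PSMB), of which PSMB5, PSMB6 and PSMB7 carry the peptide-cutting sites. The 19S particle caps the barrel. It has a ring of unfolding ATPases (PSMC) and non-ATPase subunits (PSMD) that bind, deubiquitinate and pass on the substrate. The subunits are made in step in many cell types, and when the protease is inhibited, the transcription factor NFE2L1 (also called NRF1) raises their genes together.

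Most of the measured proteasome subunit genes were detected in SW48 cells on both arrays, and with AKBA they stayed near the middle of all detected genes. Of the 33 members, 31 were detected on both arrays at a detection p under 0.01. The other 2, PSMA8 and PSMB11, were detected on neither. The median log2 difference of the 31 members, AKBA minus control, was -0.017 relative to the median of the 8640 detected genes. Here and below, values follow background correction and quantile normalization, and 0 stands for the median detected gene. Each gene is represented by its brightest detected probe, by the mean over both arrays. The members ranged from -0.30 for PSMB2 to 0.38 for PSMC4, with a standard deviation of 0.17 across genes, against 0.32 across all detected genes and 0.27 across the 4320 genes brighter than the median detected gene.

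Few members passed even a small fold. PSMC4 and PSMB4 passed 1.2-fold upward, 2 of 31, where 16.9% of all detected genes were that much higher. PSMC4 did so by 1 of its 3 probes, which was not its brightest in the control. PSMB2 was lower by 1.2-fold or more, 1 of 31, where 17.8% of all detected genes were that much lower. No member passed 1.5-fold in either direction, which 3.29% of all detected genes did upward and 3.87% downward. At 2-fold, which 0.428% and 0.301% of genes passed, there was again no member. Of the 31 members, 28 lay within 1.2-fold, a share of 90.3%, against 65.3% of all detected genes and 73.1% of the brighter ones. Of the members, 27 were themselves brighter than the median detected gene, and their median brightness lay at the 92.2 percentile of detected genes, so most genes they are set against were dimmer. Below 0 were 19 of 31 members, where 50% of detected genes lie by construction. With median scaling of the arrays and with the authors' processed values, 13 lay below 0 and the member median was 0.028 and 0.030, so the side of 0 on which the list falls is not settled. These shares are a description of 2 arrays and were not tested.

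**Figure D1:**
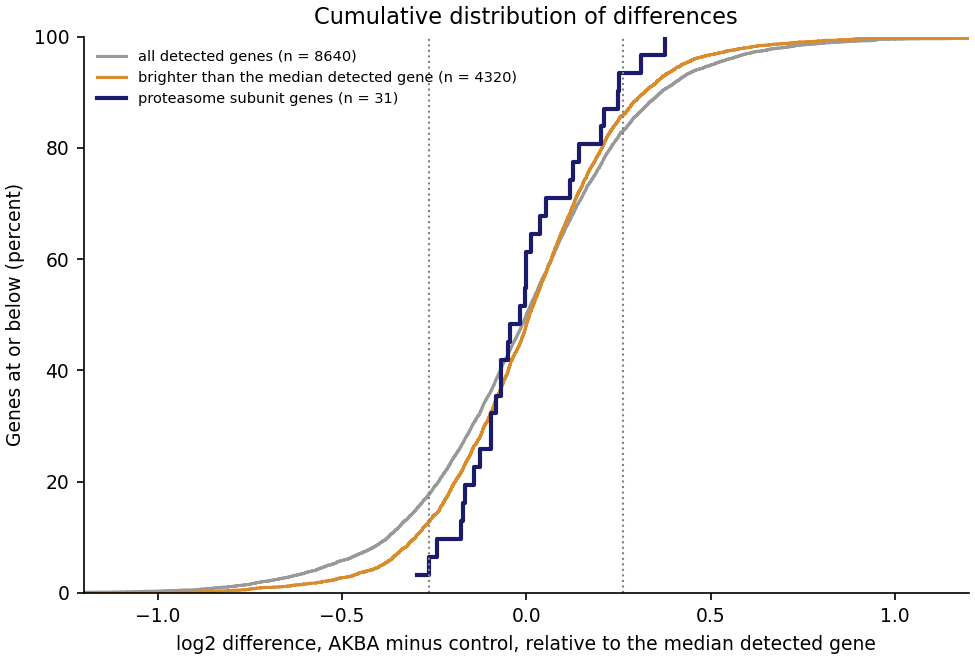
Cumulative percentage of genes (vertical axis) at or below each log2 difference between AKBA and control (horizontal axis, relative to the median detected gene), for all 8640 detected genes, the 4320 brighter ones and the 31 proteasome subunit genes. Dotted lines mark 1.2-fold. The line of the subunits is the steepest, with 28 of 31 genes between the dotted lines.

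The deposited signals show how the arrays differ before the scaling applied here. Of 43 detected member probes, 42 had a lower signal on the AKBA array (97.7%), and the median ratio of AKBA to control was 0.821. The same held for 89.0% of the 10902 detected probes with a gene name, at a median ratio of 0.815, so the AKBA array was dimmer for most detected probes. Over all probes, detected or not, the median signals lay closer, at 80.9 in the control and 78.3 with AKBA. The exception among the members was a probe of PSMC4. The represented members' probes had a median signal of 3690 in the control and 2752 with AKBA, far above the lowest detected signals of 138 and 141. Signals of different probes depend on the probe, so they show distance from the detection limit and not which subunit is more abundant. In bulk RNA, a change in RNA per cell common to all genes cannot be told apart from a dimmer array.

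The line's identity was checked against epithelial markers. Of 10 markers of colorectal epithelium, 6 were detected on both (EPCAM, CDH1, KRT8, KRT18, KRT19 and CDX2), and KRT20, VIL1, LGALS4 and CDH17 were detected on neither. Of 5 fibroblast and 3 endothelial markers none was detected. Of 6 leukocyte markers, 5 had a named probe and LYZ was detected, with signals of 147 and 150, near the limit. The summed signal of the epithelial list, detected or not, was 15638 in the control and 14673 with AKBA. After normalization, 5 of its 6 detected genes lay above 0, 4 of them by 1.2-fold or more (KRT18 at 0.62, KRT19 at 0.46, KRT8 at 0.37 and EPCAM at 0.28), and CDX2 stood at -0.37. The signals of KRT18 (196 and 221) and KRT19 (214 and 223) lay near the detection limit, so the size of both differences is uncertain. The list median was 0.33, and the part of this shift in the subunit values was not tested.

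**Figure D2:**
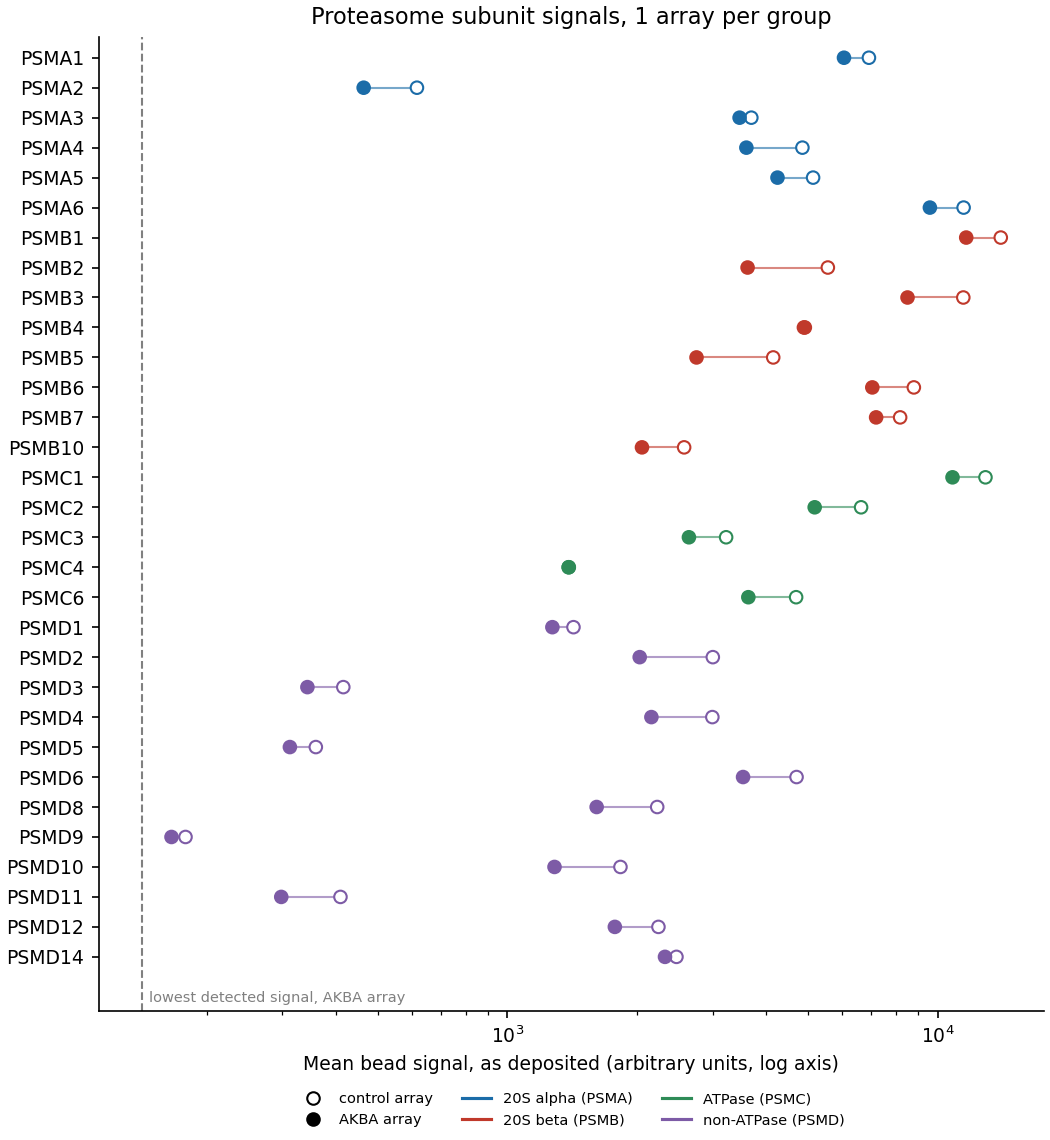
Mean bead signal as deposited (horizontal axis, arbitrary units, log scale) of the brightest probe of each detected subunit gene (vertical axis), in the control (open) and with AKBA (filled), with 1 array per group and colours for the 4 subunit classes. The AKBA signal lies to the left of the control for all genes but PSMC4, and PSMD9 lies nearest to the dashed line, the dimmest detected signal with AKBA.

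The alpha subunits of the core, which form its outer rings, had a median difference of -0.015 over 6 detected genes, with 3 above 0 and 3 below. PSMA3 stood highest, with signals of 3690 in the control and 3466 with AKBA and a difference of 0.25. Its other probe had signals of 2211 and 1723 and a difference of -0.025, so the probes of PSMA3 disagree in direction. PSMA1 stood at 0.12, with signals of 6924 and 6059, and its other detected probe gave 0.23. Both probes of PSMA1 thus lay above 0. PSMA4 was the lowest, at -0.094, with signals of 4850 and 3594, and its other probe gave -0.090. PSMA2, with signals of 616 and 464, stood at -0.083. PSMA5 stood at 0.014, with signals of 5136 and 4245. PSMA6 stood at -0.043 by its brighter probe, with signals of 11493 and 9595, and at 0.066 by the other. No alpha subunit passed 1.2-fold. PSMA8, the alternative alpha subunit of male germ cells, had signals of 64.4 and 65.9, at a detection p of 0.783 and 0.663, so no fold is given.

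The beta subunits held both a high and a low extreme of the core. Over 8 detected genes their median was -0.048, with 2 above 0 and 6 below, and each was measured by 1 probe. Of the catalytic subunits, PSMB5, the chymotrypsin-like site and main target of bortezomib, had signals of 4149 and 2752 and stood at -0.26, just short of 1.2-fold lower. PSMB6, the caspase-like site, had signals of 8806 and 7050 and a difference of -0.0011. PSMB7, the trypsin-like site, had signals of 8183 and 7196 and a difference of 0.13. The catalytic subunits thus did not share a direction, and PSMB10, the inducible form of the trypsin-like site, stood at -0.0016 with signals of 2576 and 2055.

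Among the structural beta subunits, PSMB4 and PSMB2 lay at opposite ends. PSMB4 (probe ILMN_1737862) had signals of 4914 and 4889, almost equal although the AKBA array was dimmer, and stood at 0.31, or 1.24-fold higher. PSMB2 (probe ILMN_1764794) had signals of 5558 and 3617 and stood at -0.30, or 1.23-fold lower. PSMB3, with signals of 11474 and 8512, stood at -0.18, and PSMB1, with signals of 14023 and 11654, at -0.095. The beta subunits therefore spread to both sides of 0. PSMB11, the thymus-specific subunit, had signals of 68.7 and 66.7, at a detection p of 0.601 and 0.621 and was not detected.

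**Figure D3:**
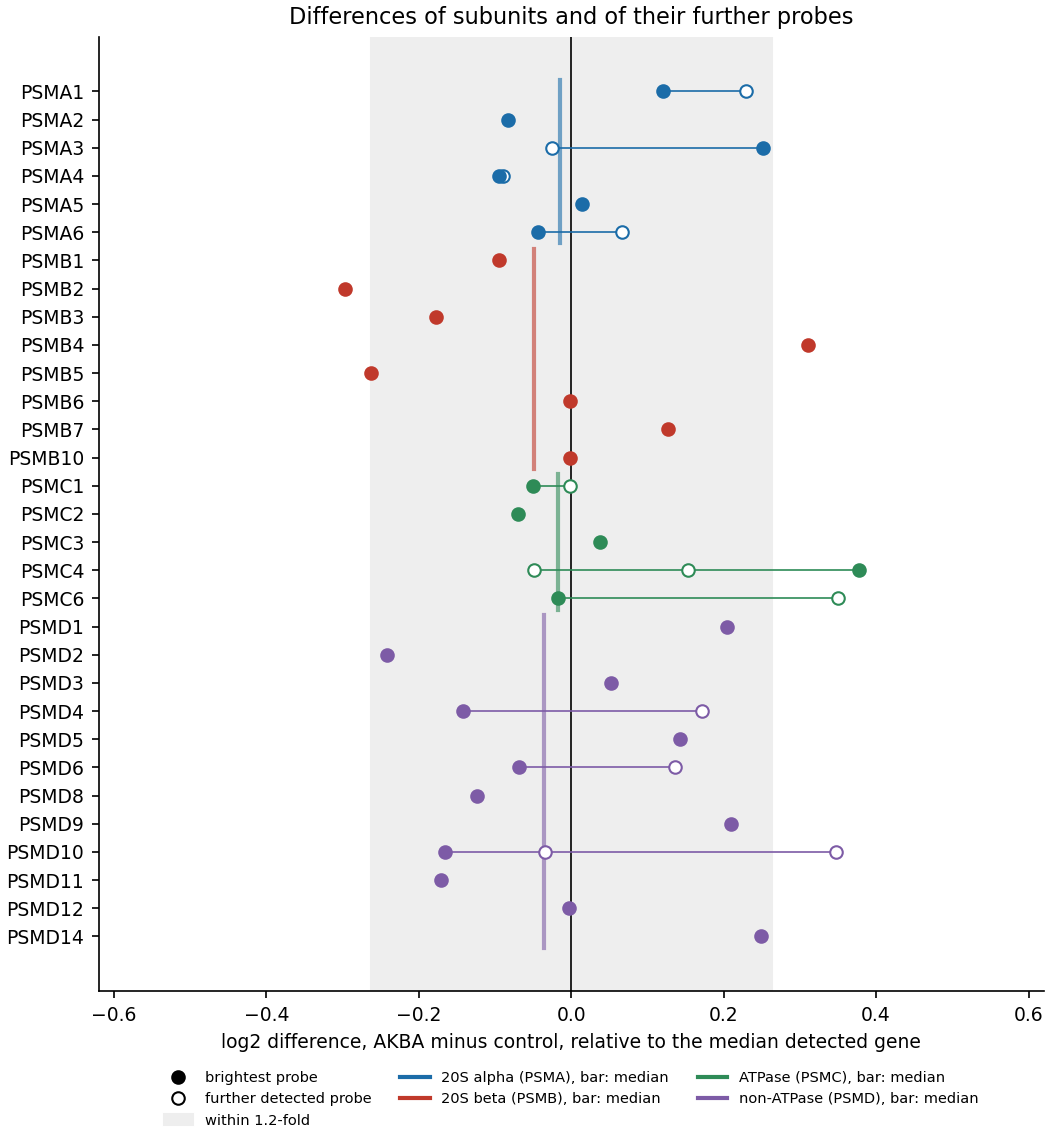
Difference in log2 signal between AKBA and control, relative to the median detected gene (horizontal axis), for each detected subunit gene (vertical axis): filled points are the brightest probe, open points further detected probes, and vertical bars the class medians. The class medians lie within 0.034 of each other in the processing plotted, whereas the probes of PSMC4, PSMC6 and PSMD10 lie 0.43, 0.37 and 0.51 apart.

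The ATPases, which unfold the substrate and thread it into the core, had a median of -0.017 over 5 detected genes. PSMC4 had the largest difference of all members, 0.38 or 1.30-fold higher, by the probe ILMN_2395389 with signals of 1388 and 1389. This value rests on 1 of 3 probes. Another PSMC4 probe, with signals of 1310 and 1127, gave 0.15, and the last, with signals of 1475 and 1111, gave -0.049, so that the mean over its probes was 0.16. That last probe was the brightest of the 3 in the control. The choice went by the mean over both arrays, so the AKBA signal took part in it. PSMC6 likewise split, at -0.017 by its bright probe, with signals of 4690 and 3632, and 0.35 by a probe with signals of 179 and 177, near the detection limit. PSMC1 lay at -0.050 and -0.0019 by its 2 probes, of which the brighter had signals of 12919 and 10830. PSMC2 stood at -0.070, with signals of 6640 and 5180, and PSMC3 at 0.038, with signals of 3224 and 2642. Apart from PSMC4, no ATPase gene lay further than 0.070 from 0 by its brightest probe.

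The PSMD genes include the lid proper, the non-ATPase part of the base and assembly chaperones that leave before the particle is complete. Over 12 detected genes the median was -0.036, and none passed 1.2-fold. The 6 detected lid genes also had a median of -0.036. PSMD14, the deubiquitinase that strips ubiquitin from the substrate, was the highest of them, at 0.25 with signals of 2472 and 2325. PSMD11, a lid scaffold, was the lowest, at -0.17 with signals of 409 and 298. PSMD8, with signals of 2230 and 1613, stood at -0.12, PSMD3, with signals of 416 and 343, at 0.052, and PSMD12, with signals of 2245 and 1778, at -0.0035. Of the 4 probes of PSMD12, 3 were detected on neither array. PSMD6 stood at -0.068 by its brighter probe, with signals of 4701 and 3531, and at 0.14 by the other.

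In the base, PSMD2, a docking subunit for ubiquitin shuttles, stood at -0.24 with signals of 3003 and 2031, the lowest of all PSMD genes. PSMD1, the other large scaffold of the base, stood at 0.20 with signals of 1425 and 1272. PSMD4, a ubiquitin receptor, gave -0.14 and 0.17 by its 2 probes. Large subunits of the same part thus lay on both sides of 0. Of the assembly chaperones, PSMD5 stood at 0.14 with signals of 359 and 312. PSMD9 stood at 0.21, with signals of 179 and 166 that lie near the detection limit, so its size is uncertain. PSMD10, also known as gankyrin, stood at -0.17 by its brightest probe, with signals of 1832 and 1287, while its other probes gave 0.35 and -0.035.

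Set side by side, the class medians lay close together in the main processing and further apart in others. The median was -0.015 for PSMA, -0.048 for PSMB, -0.017 for PSMC and -0.036 for PSMD, so that the widest gap between class medians, PSMA minus PSMB, was 0.034. The core as a whole, PSMA with PSMB, had a median of -0.023 over 14 genes. Within classes the standard deviation across genes was 0.13 for PSMA, 0.20 for PSMB, 0.18 for PSMC and 0.17 for PSMD. The widest gap grew to 0.11 with median scaling or the authors' processed values, 0.090 with the mean over each gene's probes, 0.080 without PSMB10 and 0.066 with loess. The order of the medians changed with the processing, since median scaling gave 0.081 for PSMA, 0.023 for PSMB, 0.059 for PSMC and -0.031 for PSMD. The brightest members moved most, as PSMB1 stood at 0.083, PSMA6 at 0.089 and PSMC1 at 0.095 with median scaling, each above 0, and at 0.094, 0.10 and 0.11 with the authors' processed values. PSMB6, PSMB10 and PSMD12, all within 0.01 of 0, also changed side under both. Genes of a class are not replicates of a condition, and the differences between classes were not tested.

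Probes of the same gene show how far such small differences can be read. On both arrays, 10 member genes had 2 or more detected probes, and 3 of them (PSMA1, PSMA4 and PSMC1) had all probes on the same side of 0, which is 30.0%, against 60.2% of 1677 such genes over the whole array. Probes of a gene near 0 fall on both sides of it more easily. Within 1.2-fold lay 90.3% of members, against 65.3% of all detected genes, so these shares do not compare the reliability of the probes. The range between the probes of a member gene ran from 0.0048 on the log2 scale for PSMA4 to 0.51 for PSMD10. Its median was 0.24, against 0.21 over all such genes, but a range grows with the number of probes. For genes with exactly 2 such probes it was 0.16 over 8 member genes and 0.20 over 1456 genes in all. Of the members furthest from 0, PSMC4 and PSMA3 each had a further probe on the other side of it. PSMB2, PSMB4, PSMB5, PSMD2 and PSMD14 were measured by 1 probe each, so no other probe checks them.

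Promoters were searched because members that share a particle are often discussed as sharing control elements. RefSeq promoter windows of the GRCh38.p14 build, from 250 bases before to 50 after the start, were matched for 29 of the 33 genes by symbol, in 34 windows. The core of the antioxidant response element, which NFE2L1 and NFE2L2 bind, was searched as TGACNNNGC on both strands. It was found in 8 of 34 windows (23.5%), those of PSMA4, PSMB3, PSMC4, PSMD1, PSMD3, PSMD5, PSMD9 and PSMD12, against 13.3% of all 35116 windows. The CCAAT letters were in 44.1% of member windows and 34.6% of all, GGGCGG in 58.8% and 44.95%, and TATAAA in 11.8% and 11.5%. None of the motifs contains another, and a match is a description of letters and not of binding. The genes with the antioxidant core ranged from -0.18 for PSMB3 to 0.38 for PSMC4, on both sides of 0. Above 0 stood PSMC4, PSMD9 (0.21), PSMD1 (0.20), PSMD5 (0.14) and PSMD3 (0.052). Below it stood PSMB3, PSMA4 (-0.094) and PSMD12 (-0.0035). Among all 31 detected members, 12 lay above 0, and a relation to the motif was not tested. The windows of the highest members, PSMC4 and PSMB4, and of the lowest, PSMB2, are shown 5′ to 3′, with matches to any of the 4 motifs in capitals.
PSMC4, chr19:39970915-39971214, plus strand: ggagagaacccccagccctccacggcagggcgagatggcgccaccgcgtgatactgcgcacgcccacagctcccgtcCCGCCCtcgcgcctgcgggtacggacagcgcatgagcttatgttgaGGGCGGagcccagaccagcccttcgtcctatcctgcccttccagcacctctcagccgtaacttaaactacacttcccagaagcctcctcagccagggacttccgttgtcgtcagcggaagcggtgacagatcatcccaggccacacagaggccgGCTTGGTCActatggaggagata
PSMB4, chr1:151399323-151399622, plus strand: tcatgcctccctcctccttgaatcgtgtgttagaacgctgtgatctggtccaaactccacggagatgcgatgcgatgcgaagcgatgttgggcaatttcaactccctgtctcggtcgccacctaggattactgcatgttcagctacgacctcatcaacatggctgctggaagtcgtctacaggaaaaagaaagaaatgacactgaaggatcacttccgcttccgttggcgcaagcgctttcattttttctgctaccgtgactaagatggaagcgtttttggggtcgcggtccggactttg
PSMB2, chr1:35641477-35641776, minus strand: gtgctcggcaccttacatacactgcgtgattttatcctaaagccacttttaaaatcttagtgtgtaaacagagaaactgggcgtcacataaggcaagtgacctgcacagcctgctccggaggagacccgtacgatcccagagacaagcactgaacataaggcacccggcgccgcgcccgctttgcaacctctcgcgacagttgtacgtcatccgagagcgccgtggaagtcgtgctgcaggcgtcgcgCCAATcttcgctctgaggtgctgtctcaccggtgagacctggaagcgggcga
In the PSMC4 window, the antioxidant core lies on the reverse strand from base 28 after the start, beside GC boxes 127 and 173 bases before it. The PSMB2 window holds a CCAAT box that begins 2 bases before the start. None of the 4 motifs matched in the PSMB4 window.

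Genes that work with the particle were taken from 6 lists, from the inducible subunits to ubiquitin itself. The inducible subunits PSMB8 and PSMB9, which also belong to antigen presentation by MHC class I, stood at -0.092 and -0.37. PSMB8 had signals of 1253 and 929 by its brightest probe, while its 3 detected probes ranged from -0.27 to 0.19. PSMB9 had signals of 217 and 153, the latter near the lowest detected, so its size is uncertain. All 4 detected genes of the activator caps lay below 0, with a list median of -0.23, and 1 of them passed 1.2-fold downward, where 50% and 17.8% of all detected genes lie. That was PSME2, the interferon-inducible partner of PSME1, with signals of 3004 and 1910 and a difference of -0.32. PSME1 itself, with signals of 6479 and 5143, stood at -0.045, but median scaling put it at 0.015 and the authors' processed values at 0.025. PSME3, the nuclear activator, stood at -0.24, with its other probe at -0.14, and PSME4 at -0.22. The remaining gene of the list was detected on neither array.

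Of the factors that assemble the core, 3 of 4 detected genes lay above 0, with a median of 0.033. The exception was PSMG2, a chaperone of alpha ring assembly, with signals of 4712 and 2854 and a difference of -0.38. PSMG1, with which it forms a dimer, stood at 0.12 and, by its other probe, 0.22. POMP, the maturation factor of the beta ring, stood at 0.0094. Partners within a dimer thus lay apart on these arrays, by 1 probe for PSMG2.

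The assembly chaperones and partners of the whole 26S particle, a list that includes PSMD5, PSMD9 and PSMD10, had 6 of 10 genes above 0 and a median of 0.11, with 3 higher by 1.2-fold or more, where 50% and 16.9% of all detected genes lie. PAAF1, which binds the free ATPase ring, had the highest value, with signals of 632 and 696 and a difference of 0.52, or 1.44-fold higher. TXNL1, a thioredoxin-like protein of the 19S particle, stood at 0.37 with signals of 470 and 467. UCHL5, a deubiquitinase of the 19S particle, stood at 0.32 with signals of 776 and 748. USP14, the other loosely bound deubiquitinase, stood at -0.23 with signals of 349 and 248, and its other probe gave -0.063.

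The factors known to control proteasome genes lay above 0 in 3 of 3 detected genes, with a median of 0.22 and 1 past 1.2-fold, where 50% and 16.9% of all detected genes lie. NFE2L2, the oxidative stress factor NRF2, stood at 0.35 with signals of 1401 and 1382. NFE2L1 stood at 0.22 with signals of 627 and 568. NGLY1, the deglycosylase that NFE2L1 protein needs to become active, stood at 0.22 with signals of 578 and 524. DDI2, the protease that cleaves NFE2L1, was detected on neither array. Each of these 3 detected genes was measured by 1 probe, and transcript levels say nothing of the processing of NFE2L1 protein.

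Of 8 detected genes for ubiquitin, its activation and its shuttling, 5 lay below 0, with a median of -0.091, and 2 were lower by 1.2-fold or more, where 50% and 17.8% of all detected genes lie. VCP, the ATPase that extracts ubiquitin-tagged proteins and hands them to the proteasome, had the largest difference in the 6 lists. Its single probe had signals of 1472 and 796, a difference of -0.57. UBA1, the main ubiquitin-activating enzyme, stood at -0.34 with signals of 4022 and 2531, and its other probe gave -0.098. UBQLN2, a shuttle that carries tagged proteins to the particle, stood at -0.17 with signals of 1654 and 1153, and UBA6, the second activating enzyme, at 0.15 with signals of 792 and 691. Over the 6 lists, 1.2-fold was passed upward by 4 genes and downward by 5, among 28 detected genes outside the subunits, and none passed 1.5-fold. These shares of 14.3% and 17.9% lie near the 16.9% and 17.8% of all detected genes.

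**Figure D4:**
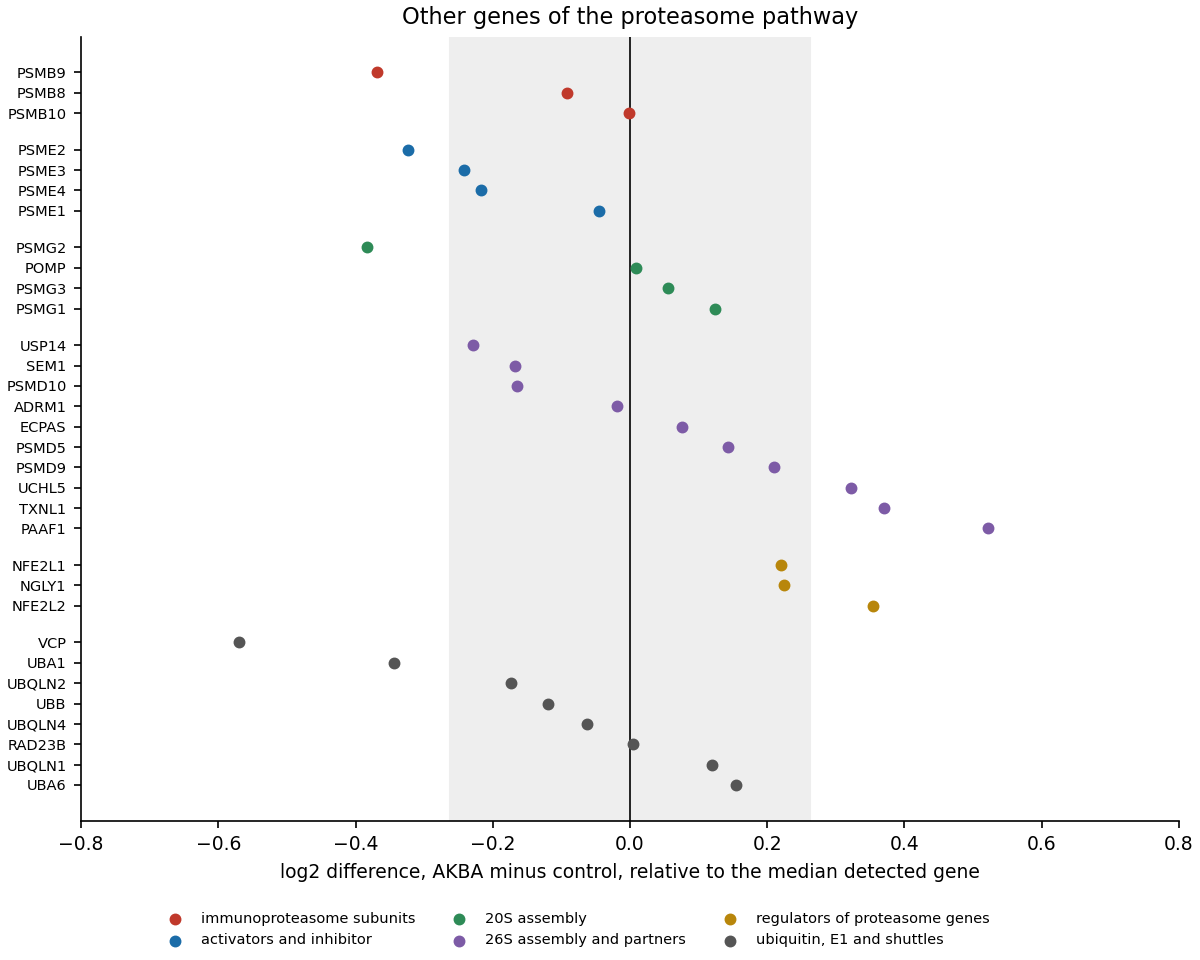
Difference in log2 signal between AKBA and control, relative to the median detected gene (horizontal axis), for the detected genes of 6 lists of the proteasome pathway (vertical axis, brightest probe of each gene, 1 array per group). The grey band marks 1.2-fold, with PAAF1 at 0.52 and VCP at -0.57 furthest outside it.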

How the data were processed

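Each intensity is the mean signal of a probe's beads, deposited as non-normalized. The values alone cannot show whether background had been subtracted or the arrays scaled. The deposited detection p-value beside each intensity compares a probe with the control beads of its array. RNA was column-purified and amplified as labelled complementary RNA, per the labels' protocols. The sources used here name no software of the authors. The authors' processed intensity values were linear in the deposited signals, with slopes of 1.00 and 1.20.

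Signals were corrected and quantile normalized with neqc of limma 3.58.1 in R 4.3.3, at an offset of 16. Tables and figures used Python 3.11.15, numpy 2.4.6, pandas 2.3.3 and matplotlib 3.10.9. By the platform annotation, 28098 probes had 1 gene name, 13 had several and 20692 had none. Genes detected on at least 1 array at a detection p under 0.01 were compared, each by its probe with the highest mean normalized signal. The median difference of those genes, -0.024 before recentring, was set to 0. Precision is limited by the number of arrays, 1 per group, so values are described and not tested. Members, lists and motifs were chosen with earlier results of these data known. Named were the catalytic subunits and PSMB10, the 4 highest and 4 lowest members, members with further probes or none detected, the remaining members within their class, and up to 4 genes of each list. Only the normalization was tested on simulated arrays, with known 1.5-fold changes in bright probes. That test does not address smaller differences, probe choice, lists or promoters. Alternatives were other background corrections, scalings, detection limits, probe summaries, reference genes, folds and class memberships.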

Additional observations from a re-analysis of the deposited data

How the results depend on the processing

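Differences of this size depend on the scaling and on the probe. Before recentring, median scaling put the median detected gene at -0.32 and the authors' processed values at -0.10. Relative to that, median scaling gave medians of 0.028 for all members, 0.081 for PSMA, 0.023 for PSMB, 0.059 for PSMC and -0.036 for the ubiquitin list. The authors' processed values gave 0.030, 0.092, 0.033, 0.069 and -0.031 in the same order, and 4 members higher by 1.2-fold. Averaging each gene's probes gave 0.011 for all members, 0.035 for PSMC and 0.039 for PSMD, with 1 member higher and 2 lower by 1.2-fold. Loess between the arrays put the ubiquitin list at -0.051. Without PSMB10 and PSMB11 the PSMB median was -0.095. PSMB5 lies at the limit, so 2 members were lower by 1.2-fold with loess, a detection p under 0.05, no filter on detection, detection on both arrays or brighter genes as reference. At 1.5-fold and at 2-fold the counts were 0 in each direction. Without a change of scaling or of probes, the changed lower count comes from another zero point by construction. Averaging took PSMC4 to 0.16 through its other probes. For the scalings, the cause was not tested. Of 146 recomputed summaries, 119 stayed within the tolerance, which was 1.5 times for counts and the probe deviation over the root of the number of genes for medians. The fall from 19 to 13 members below 0, with median scaling or the authors' processed values, counts as within it. Several alternatives mainly moved the zero point by a small amount, so the 119 do not measure stability. Under every one of the 10 alternatives run on single genes, 45 of 59 genes moved by less than 0.10 on the log2 scale. That limit is the median deviation between probes of one gene. Many differences are no larger, so a gene among the 45 can still change side. PSMB10 did so, from -0.0016 to 0.028 with the authors' processed values. PSMB2, PSMB4, PSMB5, PSMD2, PSMD14, PSMA1 and PSMC4 kept their sign under all 10, as did other members, among them PSMA3 and PSMB3. For the genes with 1 probe, the detection settings, probe means and brighter reference genes only moved the zero point. Those shifts were too small to change the signs of PSMB2, PSMB4, PSMB5, PSMD2 and PSMD14. Probes such as those of PSMD9 and PSMB9, near the lowest detected signal, depend most on background. No paired analysis was possible because each group has 1 array and no test was made.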
